A study of Mus musculus with 32 samples.

Results

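The genes described here are 37 mouse genes of DNA replication and of the step from G1 into S phase. They were taken by name from a list that uses no measured value, and each was followed through the gene name that the array design gives its probes. All 37 names were among the 27827 gene names on the array. Of these, 36 were among the 19199 names tested, because Orc1l, a subunit of the origin recognition complex, stood well above background on 1 array only and was left out. Levels are not compared between genes, since each gene was read by its own probe.

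RNA was measured in the livers of 32 mice, with 1 single-colour array per mouse. Knockout (KO) mice were E2F1-/- and wild-type (WT) mice E2F1+/+, and all had received either systemic saline or systemic lipopolysaccharide (LPS), the endotoxin of Gram-negative bacteria. There were 4 KO and 4 WT mice at 6 h after LPS, 6 KO and 6 WT mice at 20 h after LPS, and 6 KO and 6 WT mice on saline. The study asks what the transcription factor E2F1 does in the innate immune response to LPS. The saline mice are labelled 20 h, so LPS at 6 h and saline were also collected at different times. The strain label of KO mice joins B6;129 with E2F1-/-, and that of WT mice is B6x126 F2, with B6129 in their sample titles, so background strain and genotype cannot be told apart. Dose, sex, age and the deleted part of E2f1 are not given in the sources used here. The labels name liver as the tissue while their extraction protocol names lung. The 3 lung epithelial genes tested summed to at most 2.44 times the signal at an array's 75th percentile, and the 8 hepatocyte genes tested to at least 1877 times. The lung genes Sftpc, Sftpb and Nkx2-1 stood well above background on 0 arrays.

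Before S phase, the origin recognition complex, CDC6 and CDT1 load the MCM2 to MCM7 ring onto DNA, a step called licensing. CDC45, the GINS complex and MCM10 then turn the ring into an active helicase, polymerases copy the strands, and the enzymes of nucleotide synthesis supply the building blocks. E2F factors bind the promoters of many of these genes and switch them on when cyclin-dependent kinases release them from the retinoblastoma protein. Most hepatocytes of an adult liver are out of the cell cycle and can re-enter it after injury.

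Levels are given as log2 signal minus the log2 of the array's 75th percentile, called the relative log2 level, and a change is the difference of group means on that scale with its moderated standard error (SE). The 75th percentile itself ranged from 281 to 1144 signal units over the 32 arrays, and between 20203 and 28891 spots of an array were well above background. Calls rest on limma, with p-values adjusted by Benjamini-Hochberg over all 19199 genes and a threshold of 0.05, and "rose" and "fell" are used for called changes only. In bulk liver, fewer cells of a type and less RNA per cell cannot be told apart. Nothing in the labels says that the mice of a group were handled apart, so the p-values measure the spread between these samples.

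The probes of E2f1 itself lie 3′ in the gene. Where the deletion lies is not given, so they do not check the genotype. The relative log2 level of E2f1 at 20 h after LPS was -4.01, -2.09 and -0.22 (lowest, median and highest of 6) in KO livers, against -6.21, -5.81 and -4.03 in WT livers, where 5 arrays gave a value and 2 of them stood well above background. It was 3.52 ± 0.58 higher in KO livers at 20 h (adjusted p = 0.00348), while the difference was 1.53 at 6 h (adjusted p = 0.374) and 0.12 on saline. Since few WT arrays at 20 h were well above background, the size of that difference is not exact. A second, dimmer E2f1 probe gave 2.11 at 20 h (adjusted p = 0.0168), 2.0 at 6 h (adjusted p = 0.0494) and 0.56 on saline, so the probes differ in the call at 6 h. Adjusted p-values of further probes, here and below, were computed over probes and not on the gene-level adjustment. Computed so, the brighter E2f1 probe had 0.00389 at 20 h and 0.389 at 6 h. E2f1 signal was thus measured in the livers labelled knockout, and at 20 h the lowest KO array lay just above the highest WT array.

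The libraries labelled KO LPS 20 h replicate 4, KO LPS 6 h replicate 1 and KO saline replicate 1 stood apart from their groups. A score was built over the genes called at 6 h in WT livers, on which the mean of WT saline is near 0 and that of WT LPS 6 h near 1. On it KO saline replicate 1 reached 0.885, whereas the other KO saline arrays lay between -0.0048 and 0.0574. KO LPS 6 h replicate 1 reached 0.126, and its group's other arrays lay between 0.896 and 0.976. On the matching score for 20 h, KO LPS 20 h replicate 4 reached 0.356, against 0.960 to 1.06 on the other KO arrays and 0.809 to 1.12 on the WT arrays. KO saline replicate 1 thus lay near the LPS arrays and KO LPS 6 h replicate 1 near the saline arrays, which goes against their labels, and both were on slide 8. Whether labels were exchanged was not tested, the labels were kept, and every KO value with all arrays carries this doubt. KO values are from all arrays unless the text says that the 3 libraries were left out.

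Promoter windows of RefSeq (GRCm38.p6, 250 bases before to 50 after each start site) were matched for 31 of the 37 genes. They were searched on both strands for TTTCCCGC, TTTCGCGC, TTTGCCGC and TTTGGCGC, the 8-base forms of the classical E2F site. These are present in 1.07%, 0.323%, 0.441% and 0.514% of all 32851 windows, and the forms can overlap on opposite strands. At least 1 form was found in 15 of the 31 matched genes (48.4%), against 704 of 27025 genes with a window (2.60%). Of the licensing genes 7 of 8 held a form, of the fork genes 3 of 8, of the G1/S genes 2 of 4, of the repair and methylation genes 3 of 4, of the helicase activators 0 of 2 and of the nucleotide genes 0 of 5. A match is a description of the letters and not a bound site, and no match says only that these letters are not in the window. The 190 bases before the start site are printed for 3 licensing genes with such forms and for Mcm10 and Tk1, the pair with the largest changes after LPS and with no form in its windows. The sequences run 5′ to 3′ on the strand of the gene, with the matched letters in capitals, from chr8:75109319-75109508 (Mcm5, plus strand), chr1:128359706-128359895 (Mcm6, minus strand), chr5:138171884-138172073 (Mcm7, minus strand), chr2:5012792-5012981 (Mcm10, minus strand) and chr11:117826015-117826204 (Tk1, minus strand).
Mcm5: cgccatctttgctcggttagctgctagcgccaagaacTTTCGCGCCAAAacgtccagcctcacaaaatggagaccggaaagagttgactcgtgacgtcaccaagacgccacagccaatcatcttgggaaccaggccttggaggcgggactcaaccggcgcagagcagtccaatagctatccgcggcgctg
Mcm6: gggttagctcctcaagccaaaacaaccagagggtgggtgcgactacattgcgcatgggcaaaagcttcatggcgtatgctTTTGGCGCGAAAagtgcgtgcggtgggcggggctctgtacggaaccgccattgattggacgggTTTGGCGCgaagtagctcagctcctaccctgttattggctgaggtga
Mcm7: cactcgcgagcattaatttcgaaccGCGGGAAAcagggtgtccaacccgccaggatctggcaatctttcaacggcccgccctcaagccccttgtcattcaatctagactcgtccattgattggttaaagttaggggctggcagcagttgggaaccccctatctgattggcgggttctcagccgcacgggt
Mcm10: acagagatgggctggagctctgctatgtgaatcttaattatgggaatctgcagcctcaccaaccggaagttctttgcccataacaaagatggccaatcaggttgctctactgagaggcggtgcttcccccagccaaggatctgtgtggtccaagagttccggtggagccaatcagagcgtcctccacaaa
Tk1: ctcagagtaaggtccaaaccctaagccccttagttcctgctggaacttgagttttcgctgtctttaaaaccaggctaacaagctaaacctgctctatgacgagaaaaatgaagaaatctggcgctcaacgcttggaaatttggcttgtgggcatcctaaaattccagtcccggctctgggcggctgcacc
In Mcm5 the capitals begin 153 and 149 bases before the start and overlap. Mcm6 holds an overlapping pair at 110 and 106 bases and a further form at 47 bases. In the printed stretch Mcm7 holds 1 form at 165 bases, and its window holds a further form 17 bases after the start. In WT livers at 6 h after LPS, 6 of the 14 tested genes with a form and 6 of the 16 without one fell, with median changes of -0.82 and -0.89. These stand beside 16.1% of all genes called lower. At 20 h in KO livers 4 of the 14 with a form rose and 0 fell, and 0 of the 16 without one rose and 4 fell, beside 11.7% of all genes called higher and 14.6% lower. Leaving out the 3 libraries made this 5 higher and 1 lower with a form, and 3 higher and 4 lower without one. At 20 h in WT livers 2 rose and 0 fell with a form, and 2 rose and 4 fell without one, beside 16.3% of all genes higher and 20.2% lower.

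At 6 h after LPS, replication genes were lower in WT livers. Of the 36 tested, 13 fell and 3 rose, against 16.1% of all genes called lower and 12.4% called higher, and the median change was -0.75 log2 for the 36 genes and 0.01 for all genes. The losses were spread over licensing, helicase activation, the fork, nucleotide supply and repair, while the 2 rises outside licensing were cyclin E1 and CHK1. Both genotypes together are drawn in the map of levels by array. Within scan dates 1 and 2, with 1 WT LPS 6 h array each, the median change was -0.84 and -0.58. With slide as a block 8 fell and 2 rose, where 2201 of all 19199 genes were called lower and 1900 higher. The third date held no WT saline array. Some, not all, of the listed markers of neutrophils, sinusoidal endothelium and mitosis were also called at 6 h in WT livers, as counted at the end.

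**Figure D1:**
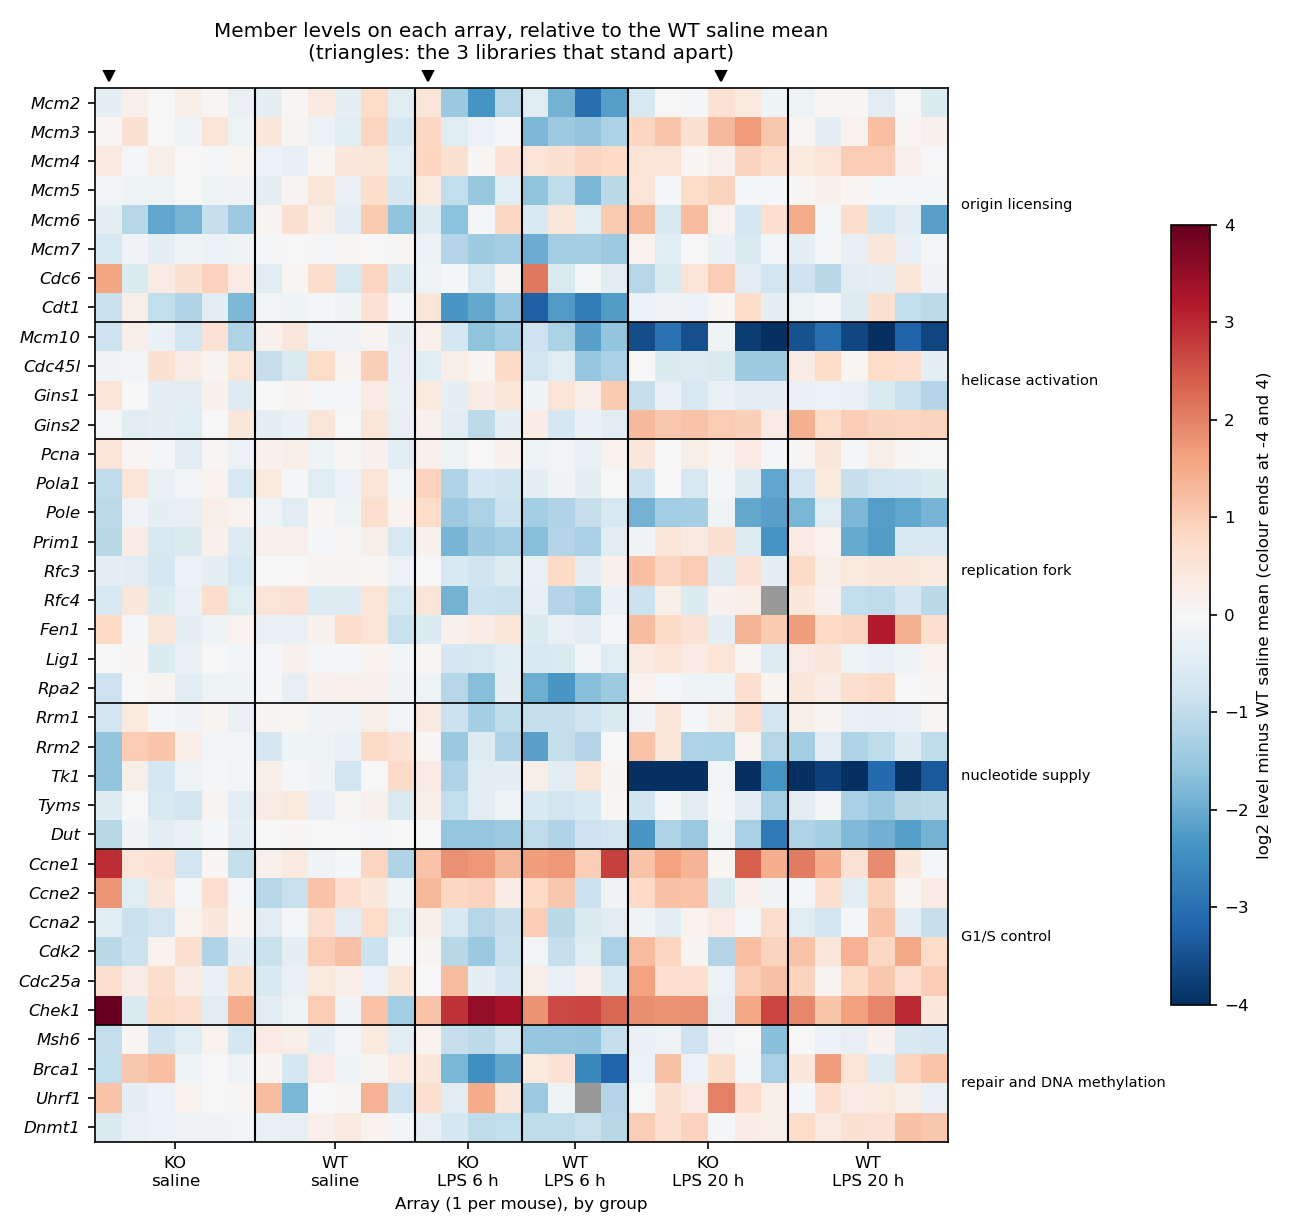
Relative log2 level of each of the 36 tested genes on each of the 32 arrays, minus the WT saline mean of that gene. Rows are genes grouped by role, columns are arrays grouped by treatment and genotype, grey marks a missing value and triangles mark the 3 libraries that stand apart. Cdt1, Mcm2, Mcm5 and Mcm7 are blue at 6 h after LPS on all arrays but KO LPS 6 h replicate 1, where only Mcm7 of these is below the WT saline mean, and Mcm10 and Tk1 are blue at 20 h on all arrays but KO LPS 20 h replicate 4.

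In KO livers at 6 h the call depended on the libraries that stand apart. With all arrays, 1 gene fell (Mcm7) and 0 rose, where 1.05% of all genes were called lower and 1.55% higher. Of the 36, 8 had an unadjusted p under 0.05, a cut at which the share of all genes is not given here. Without the 3 libraries, 12 fell and 2 rose, against 17.6% of all genes lower and 13.5% higher, and the median change was -0.53, against -0.32 with all arrays. Within scan dates 1 and 2 the median change was -0.41 and -0.65. Within the third date it was 0.46. The single KO LPS 6 h array of that date is replicate 1, and 1 of its 2 KO saline arrays is KO saline replicate 1.

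By 20 h after LPS the list no longer lay on 1 side. In WT livers 6 genes rose and 6 fell, where 16.3% of all genes were called higher and 20.2% lower, and the median change was -0.03 for the 36 genes and for all genes. In KO livers 5 rose and 5 fell, where 11.7% of all genes were called higher and 14.6% lower, with a median of 0.20 against -0.09 for all genes. Without the 3 libraries, 9 rose and 6 fell in KO livers, against 19.0% and 22.1% of all genes. In that fit the KO changes called with all arrays were 0.92 for Mcm3, 1.87 for Mcm6, 1.12 for Gins2, 1.14 for Rfc3, 0.80 for Dnmt1, -1.06 for Cdc45l, -1.68 for Pole and -1.58 for Dut, all still called. Within scan dates 1 and 2 the medians were 0.28 and 0.23 in KO livers and -0.03 and -0.06 in WT livers.

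Many of the genes were higher at 20 h than at 6 h after LPS. In WT livers 15 of the 36 were higher and 3 lower at 20 h than at 6 h, where 17.0% of all genes were called higher and 17.3% lower, and the median difference was 0.35 against -0.09 for all genes. In KO livers 12 were higher and 3 lower, where 7.31% of all genes were called higher and 8.28% lower, with a median of 0.65 against -0.04. Without the 3 libraries the KO counts were 14 higher and 3 lower, against 13.5% and 13.1% of all genes. In WT livers the called rises were led by Cdt1 (2.28 ± 0.41), Rpa2 (2.23 ± 0.25), Brca1 (1.87 ± 0.63), Dnmt1 (1.77 ± 0.21), Fen1 (1.76 ± 0.39), Mcm3 (1.74 ± 0.30), Mcm2 (1.73 ± 0.40) and Cdk2. Those of KO livers were led by Gins2 (1.39 ± 0.25), Cdk2, Cdt1 (1.32 ± 0.41), Dnmt1 (1.27 ± 0.21), Mcm2 (1.15 ± 0.40), Mcm3 (1.09 ± 0.30), Mcm5 (0.97 ± 0.29) and Rpa2 (0.94 ± 0.25). Cdk2 was not well above background on any 6 h array, and was at least 1.28-fold higher at 20 h in KO livers and at least 1.83-fold higher in WT livers. A second, dimmer Brca1 probe gave 1.27 in WT livers (adjusted p = 0.0913), not called. On the WT LPS 6 h arrays the brighter Brca1 probe stood at -1.57, -1.39, -4.57 and -5.16. Mcm10, Tk1 and Gins1 were lower at 20 h in both genotypes, Mcm10 by -2.34 ± 0.56 in KO and -2.08 ± 0.56 in WT livers, Tk1 by -2.93 ± 0.57 and -3.89 ± 0.57, and Gins1 by -0.71 ± 0.24 and -0.99 ± 0.24 (signed log2 differences), and Gins1 was not called in KO livers without the 3 libraries (adjusted p = 0.0532). A second Gins1 probe gave -0.25 in KO livers (adjusted p = 0.473), not called, and -0.92 in WT livers (adjusted p = 0.00113). The differences between 20 h and 6 h share the 6 h arrays with the comparisons against saline. Within scan dates 1, 2 and 3 the median difference was 0.67, 0.71 and -0.32 in KO livers and 0.48, 0.51 and 0.93 in WT livers.

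**Figure D2:**
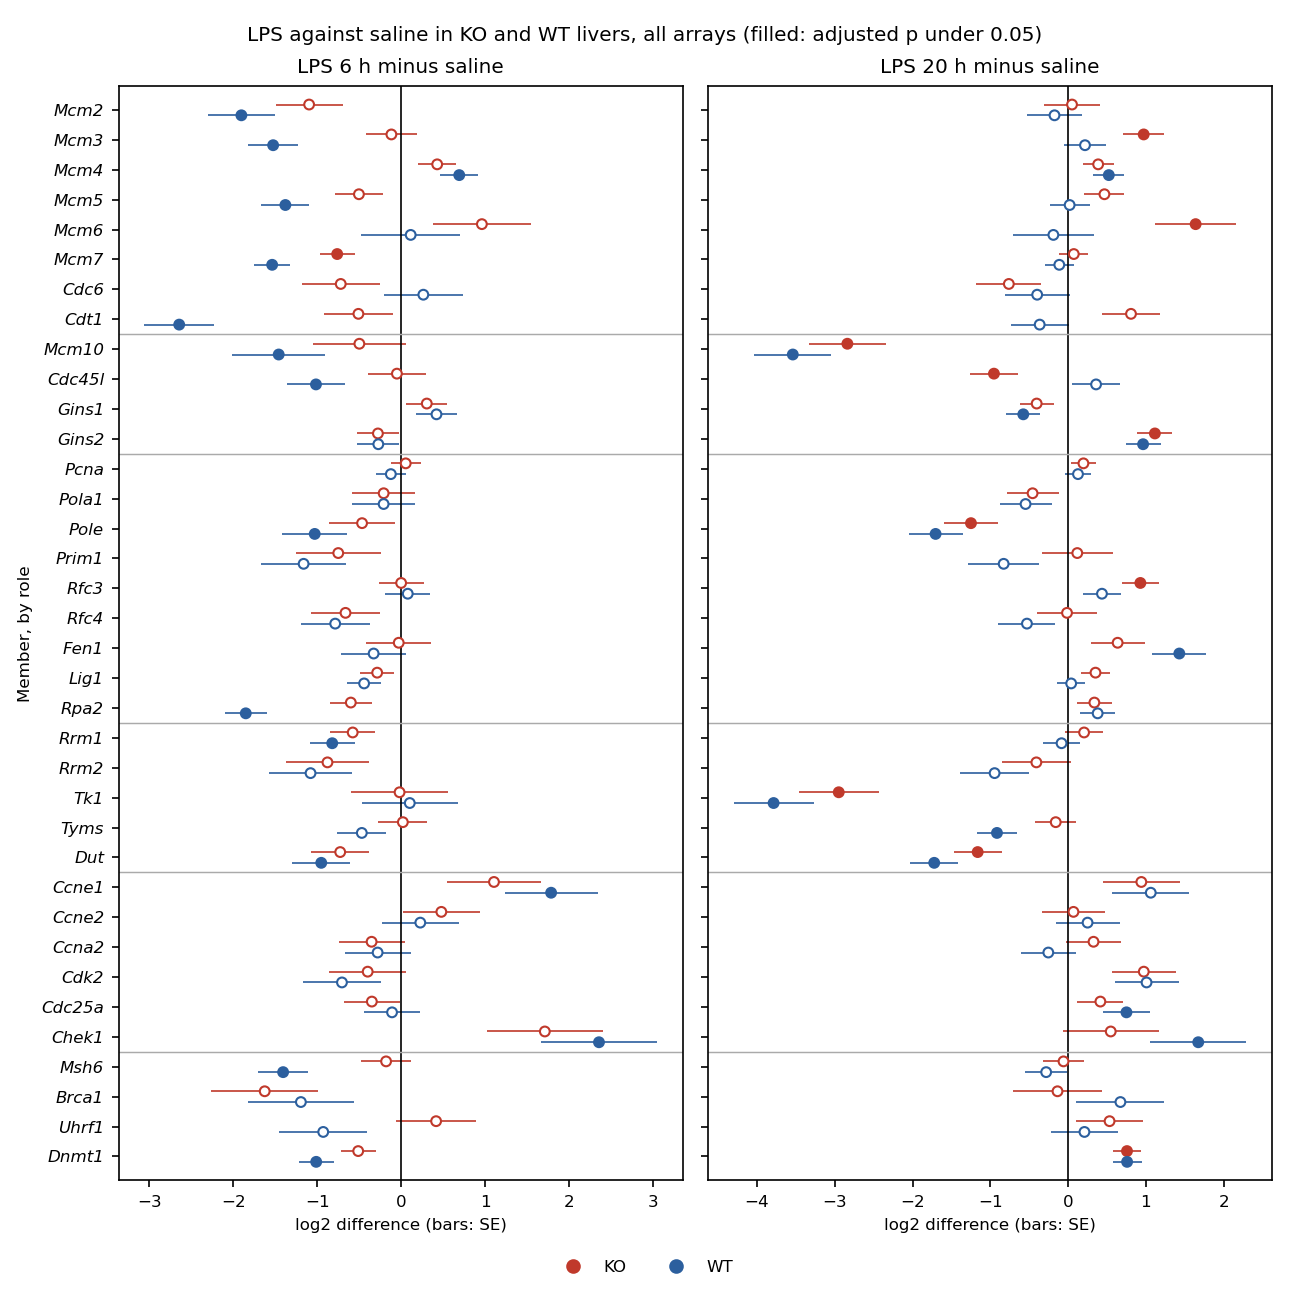
Change after LPS relative to saline at 6 h (left) and 20 h (right) for each tested gene in KO (red) and WT (blue) livers, in log2 units with SE, over all arrays. Filled points have an adjusted p under 0.05. At 6 h the WT points of Mcm2, Mcm3, Mcm5, Mcm7, Cdt1 and Rpa2 are filled and lie below -1, and at 20 h Mcm10 and Tk1 lie below -2 in both genotypes.

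Among the licensing genes, WT livers at 6 h lost 5 of 8 tested and gained 1, where 16.1% of all genes were called lower and 12.4% higher. The gain was Mcm4 at 0.69 ± 0.22 (adjusted p = 0.0206). Cdt1, which brings the MCM ring to the origin, fell by 2.64 ± 0.41 on the log2 scale, a 6.25-fold lower level (adjusted p = 3.28e-05). Its relative log2 level was -1.81, -0.82, -1.33 and -0.78 on the 4 WT LPS 6 h arrays, against 1.29, 1.36 and 2.04 (lowest, median and highest) on the 6 WT saline arrays. The 2 groups did not overlap. In KO livers Cdt1 stood at 1.95, -0.87, -0.59 and -0.09 at 6 h, against -0.32, 0.52 and 1.73 on KO saline. Replicate 1 of the KO LPS 6 h group was above every KO saline array, replicates 2 and 3 were below all of them, and replicate 4 was inside their range. The KO change of Cdt1 was -0.51 ± 0.41 with all arrays (adjusted p = 0.526) and -1.14 ± 0.39 without the 3 libraries (adjusted p = 0.0243). By 20 h Cdt1 was back at 1.07, 1.28 and 2.19 in KO livers and 0.40, 1.10 and 2.07 in WT livers, and in WT it was 2.28 ± 0.41 higher than at 6 h (adjusted p = 9.55e-05).

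Of the 6 ring subunits, 4 fell with Cdt1 in WT livers at 6 h. Mcm2 fell by 1.90 ± 0.40 (adjusted p = 0.000597), Mcm3 by 1.53 ± 0.30, Mcm5 by 1.38 ± 0.29 and Mcm7 by 1.54 ± 0.21 (adjusted p = 8.44e-06), whereas Mcm6 differed by 0.11 and was not called. On the 4 WT LPS 6 h arrays Mcm2 stood at -2.05, -3.46, -4.56 and -3.76, against -1.96, -1.69 and -0.80 on WT saline, and the groups did not overlap. In KO livers Mcm2 stood at -1.08, -3.03, -3.92 and -2.70 at 6 h, against -1.93, -1.53 and -1.32 on saline. Replicate 1 of that LPS group was above every saline array, and the other 3 arrays were below all of them. Without the 3 libraries Mcm2 fell by 1.70 ± 0.38 in KO livers, Mcm5 by 0.84 ± 0.28 and Mcm7 by 1.11 ± 0.20. At 20 h Mcm3 and Mcm6 rose in KO livers, by 0.97 ± 0.27 (adjusted p = 0.00776) and 1.64 ± 0.53 (adjusted p = 0.0209), and in WT livers the changes were 0.22 and -0.19, neither called. Mcm4 was the licensing gene that rose in WT livers at 20 h, at 0.52 ± 0.20 (adjusted p = 0.0404). Cdc6, the loader ATPase, was dim, standing well above background on 0 to 2 arrays of each group, and it was not called.

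**Figure D3:**
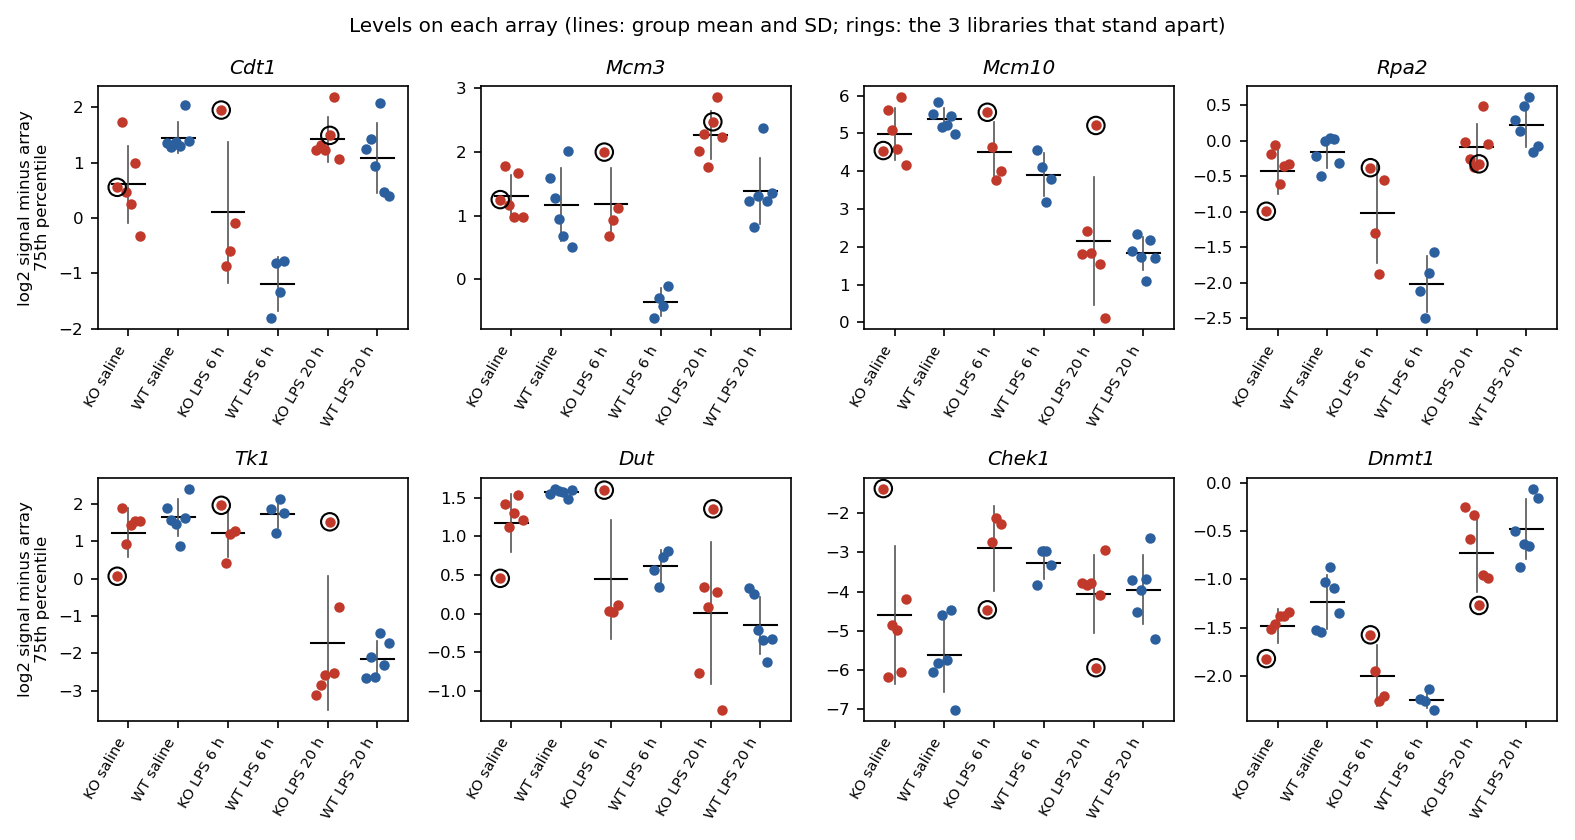
Relative log2 level of 8 genes on every array, by group, with KO in red and WT in blue. Lines are the group mean and SD, and rings mark the 3 libraries that stand apart. For Mcm10, Tk1 and Dut the ringed KO LPS 20 h array lies among the saline levels, and for Mcm3 all 4 KO LPS 6 h arrays lie above all 4 WT LPS 6 h arrays.

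Of the 4 helicase activators, Mcm10 had the largest change of any licensing or helicase gene, and it came late. At 20 h after LPS it fell by 3.54 ± 0.50 in WT livers, an 11.6-fold lower level (adjusted p = 3.26e-06), and by 2.84 ± 0.50 in KO livers (adjusted p = 0.000137), with a KO change of -3.54 ± 0.36 without the 3 libraries. Its relative log2 level at 20 h was 0.11, 1.82 and 5.21 in KO livers, against 4.17, 4.84 and 5.96 on KO saline. The highest of these 20 h values is replicate 4, and the groups overlapped through that array alone. In WT livers Mcm10 was 1.11, 1.81 and 2.34 at 20 h, against 4.99, 5.34 and 5.83 on saline, without overlap. At 6 h it stood at 4.55, 4.10, 3.18 and 3.79 in WT livers and 5.56, 4.65, 3.77 and 4.01 in KO livers, with changes of -1.46 ± 0.56 in WT (adjusted p = 0.0479) and -0.50 in KO, where it was not called.

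At 20 h the GINS subunits and Cdc45l changed less than Mcm10, and Gins2 went the other way. Gins2 rose at 20 h in both genotypes, by 1.12 ± 0.22 in KO livers (adjusted p = 0.000555) and by 0.96 ± 0.22 in WT livers (adjusted p = 0.00124). Its levels at 20 h were -2.53, -1.81 and -1.56 in KO livers and -2.11, -1.96 and -1.42 in WT livers, against -3.33, -3.06 and -2.39 on KO saline and -3.25, -2.99 and -2.35 on WT saline. The WT groups did not overlap, and the KO groups overlapped through KO LPS 20 h replicate 6. Gins1 fell by 0.58 ± 0.22 at 20 h in WT livers (adjusted p = 0.0378) and its change was -0.40 in KO livers, not called. Cdc45l was dim, well above background on 0 of 4 arrays in WT livers at 6 h and on 4 of 6 on WT saline, so the size of its called 6 h loss in WT is not exact. It fell by 0.95 ± 0.31 at 20 h in KO livers (adjusted p = 0.0208), where 2 of 6 arrays stood well above background, and its WT change at 20 h was 0.36, not called.

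Of the 9 fork genes, 2 fell in WT livers at 6 h (16.1% of all genes), and at 20 h 1 rose and 1 fell in each genotype, beside 11.7% and 14.6% of all genes in KO livers and 16.3% and 20.2% in WT livers. At the fork, Rpa2 and Pole led the changes and took different courses. Rpa2, a subunit of the complex that coats single-stranded DNA, fell by 1.85 ± 0.25 in WT livers at 6 h (adjusted p = 8.44e-06) and was 2.23 ± 0.25 higher at 20 h than at 6 h (adjusted p = 2.09e-07). It stood at -2.11, -2.50, -1.87 and -1.57 on the WT LPS 6 h arrays, against -0.50, -0.11 and 0.03 on WT saline, with no overlap. On the KO LPS 6 h arrays it stood at -0.38, -1.30, -1.88 and -0.55, against -0.99, -0.34 and -0.07 on KO saline, and the groups overlapped. The KO change was -0.60 ± 0.25 (adjusted p = 0.160) and -0.93 ± 0.26 without the 3 libraries (adjusted p = 0.00643). Rpa2 was read by a further probe, which gave -1.88 in WT and -0.75 in KO livers at 6 h.

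Pole, the catalytic subunit of the leading-strand polymerase, was lower at both times in WT livers, by 1.03 ± 0.39 at 6 h (adjusted p = 0.0461) and by 1.70 ± 0.35 at 20 h (adjusted p = 0.000341). Its levels at 20 h were -3.73, -3.22 and -1.72 in KO livers and -3.77, -3.42 and -2.04 in WT livers, against -2.60, -1.81 and -1.31 on KO saline and -2.0, -1.64 and -0.94 on WT saline. The WT groups did not overlap, and the highest KO LPS 20 h array, replicate 4, was inside the KO saline range. The KO change at 20 h was -1.25 ± 0.35 (adjusted p = 0.00844). At 6 h Pole stood at -0.83, -3.04, -2.84 and -2.44 in KO livers and -2.94, -2.78, -2.48 and -2.20 in WT livers. Fen1, the flap nuclease of lagging-strand maturation, rose by 1.43 ± 0.35 at 20 h in WT livers (adjusted p = 0.0019), and in KO livers its change was 0.64 with all arrays and 0.99 ± 0.35 without the 3 libraries (adjusted p = 0.0226). Rfc3, a subunit of the clamp loader, rose by 0.93 ± 0.24 at 20 h in KO livers (adjusted p = 0.00497), and its WT change was 0.44 (adjusted p = 0.158). Pcna, the sliding clamp, was not called in any of the comparisons, and its group medians ran from 2.52 to 2.87. Pola1, Prim1, Rfc4 and Lig1 were not called after LPS relative to saline with all arrays. Rfc4 fell in KO livers at 6 h once the 3 libraries were left out, by 1.18 ± 0.43, and Pola1 at 20 h, by 0.74 ± 0.30.

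With all arrays, every change of the nucleotide genes called relative to saline was a loss. Of all genes in WT livers, 16.1% were called lower and 12.4% higher at 6 h, and 20.2% and 16.3% at 20 h. In KO livers the shares were 1.05% and 1.55% at 6 h, and 14.6% and 11.7% at 20 h. The group is small, so this is not read as a trait of it. Tk1, the thymidine kinase of the salvage route, fell by 3.79 ± 0.51 at 20 h in WT livers, a 13.8-fold lower level (adjusted p = 2.12e-06), and by 2.95 ± 0.51 in KO livers (adjusted p = 0.000129), with a KO change of -3.83 ± 0.35 without the 3 libraries. Its levels at 20 h were -3.12, -2.55 and 1.52 in KO livers and -2.67, -2.19 and -1.46 in WT livers, against 0.06, 1.48 and 1.88 on KO saline and 0.88, 1.61 and 2.41 on WT saline. The WT groups did not overlap, and KO LPS 20 h replicate 4 alone stood inside the KO saline range. At 6 h no such loss was seen, with 1.96, 0.41, 1.20 and 1.27 in KO livers and 1.86, 1.21, 2.14 and 1.75 in WT livers. The next gene on the chromosome, Afmid (kynurenine formamidase), lies head to head with Tk1 on the opposite strand, and their RefSeq promoter windows share 4 bases. Afmid was looked at after its values were seen, and it fell by 3.53 ± 0.52 in WT livers (adjusted p = 6.99e-06) and by 2.90 ± 0.52 in KO livers (adjusted p = 0.00019) at 20 h.

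Dut, which removes dUTP before it can be built into DNA, fell at both times in WT livers, by 0.95 ± 0.34 at 6 h (adjusted p = 0.0372) and by 1.72 ± 0.31 at 20 h (adjusted p = 7.39e-05). At 6 h it stood at 1.60, 0.03, 0.02 and 0.11 in KO livers and 0.57, 0.35, 0.73 and 0.81 in WT livers, against 0.46, 1.25 and 1.53 on KO saline and 1.48, 1.58 and 1.62 on WT saline. In KO livers 3 arrays were below every saline array and replicate 1 was above all of them. At 20 h it stood at -1.25, 0.18 and 1.36 in KO livers and -0.62, -0.27 and 0.33 in WT livers, and the KO change was -1.16 ± 0.31 (adjusted p = 0.0059). A second Dut probe gave, in WT livers, -0.90 at 6 h (adjusted p = 0.152), not called, and -1.64 at 20 h (adjusted p = 0.00254). Rrm1, the large subunit of ribonucleotide reductase, fell by 0.82 ± 0.27 in WT livers at 6 h (adjusted p = 0.0209) and, without the 3 libraries, by 1.06 ± 0.24 in KO livers. Rrm2, the small subunit, had changes of -0.88 in KO and -1.08 in WT livers at 6 h, neither called with all arrays, and without the 3 libraries the KO change was -1.49 ± 0.48 (adjusted p = 0.0182). Tyms, thymidylate synthase, fell by 0.91 ± 0.26 at 20 h in WT livers (adjusted p = 0.00683), and its KO change was -0.16. Its 3 probes gave between -0.86 and -1.41 in WT livers at 20 h.

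With all arrays, the G1/S regulators had no called loss relative to saline. Called lower among all genes were 16.1% at 6 h and 20.2% at 20 h in WT livers, and 1.05% and 14.6% in KO livers. Called higher were 12.4% and 16.3% in WT livers, and 1.55% and 11.7% in KO livers. In so small a group the lack of losses is not read as a trait. Chek1, the checkpoint kinase of stalled forks, rose by 2.35 ± 0.69 in WT livers at 6 h (adjusted p = 0.0106) and by 1.67 ± 0.62 at 20 h (adjusted p = 0.0337). It stood at -3.82, -2.97, -2.96 and -3.33 on the WT LPS 6 h arrays, against -7.02, -5.79 and -4.48 on WT saline. The groups did not overlap, and since 1 of the 6 saline arrays stood well above background the size of the rise is not exact. In KO livers Chek1 stood at -4.47, -2.73, -2.11 and -2.28 at 6 h, against -6.19, -4.92 and -1.37 on saline, and the highest saline value is replicate 1. Without the 3 libraries the KO rise was 2.88 ± 0.52 (adjusted p = 9.39e-05), against 1.71 ± 0.69 with all arrays (adjusted p = 0.143). Its other probe gave 1.43 in KO and 2.38 in WT livers at 6 h.

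Ccne1, the cyclin that drives entry into S phase with CDK2, rose by 1.78 ± 0.55 in WT livers at 6 h (adjusted p = 0.0157). Its levels were 1.30, 2.0, 1.91 and 1.47 in KO livers and 1.84, 1.91, 1.16 and 2.91 in WT livers at 6 h, against -0.80, 0.46 and 3.14 on KO saline and -1.04, 0.22 and 1.03 on WT saline. The WT groups did not overlap, and KO saline replicate 1 was the highest of all the saline arrays. The KO change was 1.10 ± 0.55 (adjusted p = 0.249) and 1.74 ± 0.48 without the 3 libraries (adjusted p = 0.00629). Cdc25a, the phosphatase that activates CDK2, rose by 0.75 ± 0.30 at 20 h in WT livers (adjusted p = 0.0475), and its second probe gave 2.05. In KO livers at 20 h its change was 0.415, not called, and the second probe gave 1.38 (adjusted p = 0.0492). Cdk2 had 20 h changes of 0.97 in KO and 1.01 in WT livers, neither called with all arrays (adjusted p = 0.0796 and 0.0549), and it was well above background on no array of either 6 h group. Ccne2 and Ccna2, the other S-phase cyclins of the list, were not called in any comparison.

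Of the 4 repair and methylation genes, 2 fell in WT livers at 6 h (16.1% of all genes), and at 20 h 1 rose in each genotype (11.7% of all genes in KO and 16.3% in WT livers). Dnmt1, the maintenance DNA methyltransferase, moved both ways with time. It fell by 1.01 ± 0.21 in WT livers at 6 h (adjusted p = 0.00049) and rose by 0.76 ± 0.19 at 20 h in KO livers (adjusted p = 0.00321) and by 0.76 ± 0.19 in WT livers (adjusted p = 0.00195). Its levels at 6 h were -1.57, -1.95, -2.27 and -2.21 in KO livers and -2.24, -2.26, -2.14 and -2.35 in WT livers, against -1.82, -1.43 and -1.34 on KO saline and -1.55, -1.22 and -0.87 on WT saline. At 20 h they were -1.27, -0.77 and -0.25 in KO livers and -0.87, -0.57 and -0.06 in WT livers. Neither 20 h group overlapped its saline group, and the WT LPS 6 h group lay wholly below WT saline. From 6 h to 20 h Dnmt1 was 1.27 ± 0.21 higher in KO livers (adjusted p = 0.000183) and 1.77 ± 0.21 higher in WT livers (adjusted p = 3.16e-07).

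Msh6, a mismatch-recognition subunit, fell by 1.41 ± 0.30 in WT livers at 6 h (adjusted p = 0.00073). It stood at 2.49, 1.42, 1.28 and 1.59 on the KO LPS 6 h arrays and 0.78, 0.80, 0.74 and 1.39 on the WT LPS 6 h arrays, against 1.37, 1.74 and 2.48 on KO saline and 1.89, 2.39 and 2.72 on WT saline. The WT groups did not overlap and the KO groups did, and the KO change of -0.18 was not called. Brca1, of the homologous recombination pathway, had 6 h changes of -1.63 in KO and -1.20 in WT livers, neither called with all arrays, and without the 3 libraries the KO change was -2.49 ± 0.65 (adjusted p = 0.00419). A second, dimmer Brca1 probe gave -0.98 in KO and 0.09 in WT livers, so the probes differ in WT. Uhrf1, which recruits DNMT1 to new DNA, was not called in any comparison, and its 2 probes disagreed in sign at 6 h in KO livers, at 0.41 and -0.42.

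Knockout and wild-type livers differed in few of these genes. On saline 0 of the 36 were called with limma (2 had an unadjusted p under 0.05), where 0.135% of all genes were called higher and 0.198% lower in KO livers. At 6 h after LPS, 1 was higher and 0 lower in KO livers, where 0.849% of all genes were called higher and 0.380% lower, and 8 had an unadjusted p under 0.05. At 20 h 0 were called (2 with an unadjusted p under 0.05), where 0.167% of all genes were called higher and 0.156% lower. These shares are for called genes. None is given at the unadjusted cut, so the unadjusted counts show neither an excess nor a lack. The median KO minus WT difference over the 36 genes was -0.14 on saline, 0.14 at 6 h and 0.16 at 20 h, and -0.13, -0.10 and 0.08 without the 3 libraries. Counts of 0 do not show that the genotypes were alike, since the SE of a single gene's difference reached 0.758 at 6 h.

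Mcm3 was the gene called at 6 h. It stood at 2.0, 0.68, 0.93 and 1.12 on the KO arrays, against -0.61, -0.29, -0.42 and -0.10 on the WT arrays, so that the groups did not overlap. The difference was 1.54 ± 0.33, a 2.91-fold higher level in KO livers (adjusted p = 0.0141), and 1.27 ± 0.34 without the 3 libraries (adjusted p = 0.0469). It was not called when only KO LPS 6 h replicate 1 and KO saline replicate 1 were left out (adjusted p = 0.0531), nor with slide as a block (1.27, adjusted p = 0.0993). Within scan dates 1, 2 and 3 the difference was 1.11, 1.13 and 2.45, none called. Mcm3 averaged 1.18 ± 0.57 in KO and -0.36 ± 0.22 in WT livers at 6 h (SD, n = 4 each), and 1.30 ± 0.35 in KO and 1.17 ± 0.58 in WT livers on saline (SD, n = 6 each). A second Mcm3 probe gave a difference of 0.89 at 6 h, which was not called (adjusted p = 0.148). At 20 h Mcm3 stood at 1.76, 2.26 and 2.86 in KO livers, against 0.82, 1.27 and 2.37 in WT livers, and the groups overlapped.

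The response to LPS was compared between the genotypes directly, as KO response minus WT response. At 6 h 0 of the 36 were called (6 had an unadjusted p under 0.05), where 0.0677% of all genes were called higher and 0.0729% lower. At 20 h 0 were called (3 had an unadjusted p under 0.05), where 0.0156% of all genes were called higher and 0.0260% lower. Here too the shares are for called genes, and none is given at the unadjusted cut. The 6 h term with the smallest adjusted p among the 36 was that of Cdt1, at 2.13 ± 0.59 with all arrays (adjusted p = 0.169) and 1.51 ± 0.51 without the 3 libraries (adjusted p = 0.244). Over the 36 genes the median term was 0.25 at 6 h and 0.22 at 20 h, and -0.01 and 0.15 without the 3 libraries. A change called in 1 genotype and not in the other is thus not shown to differ between them for any of these genes.

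**Figure D4:**
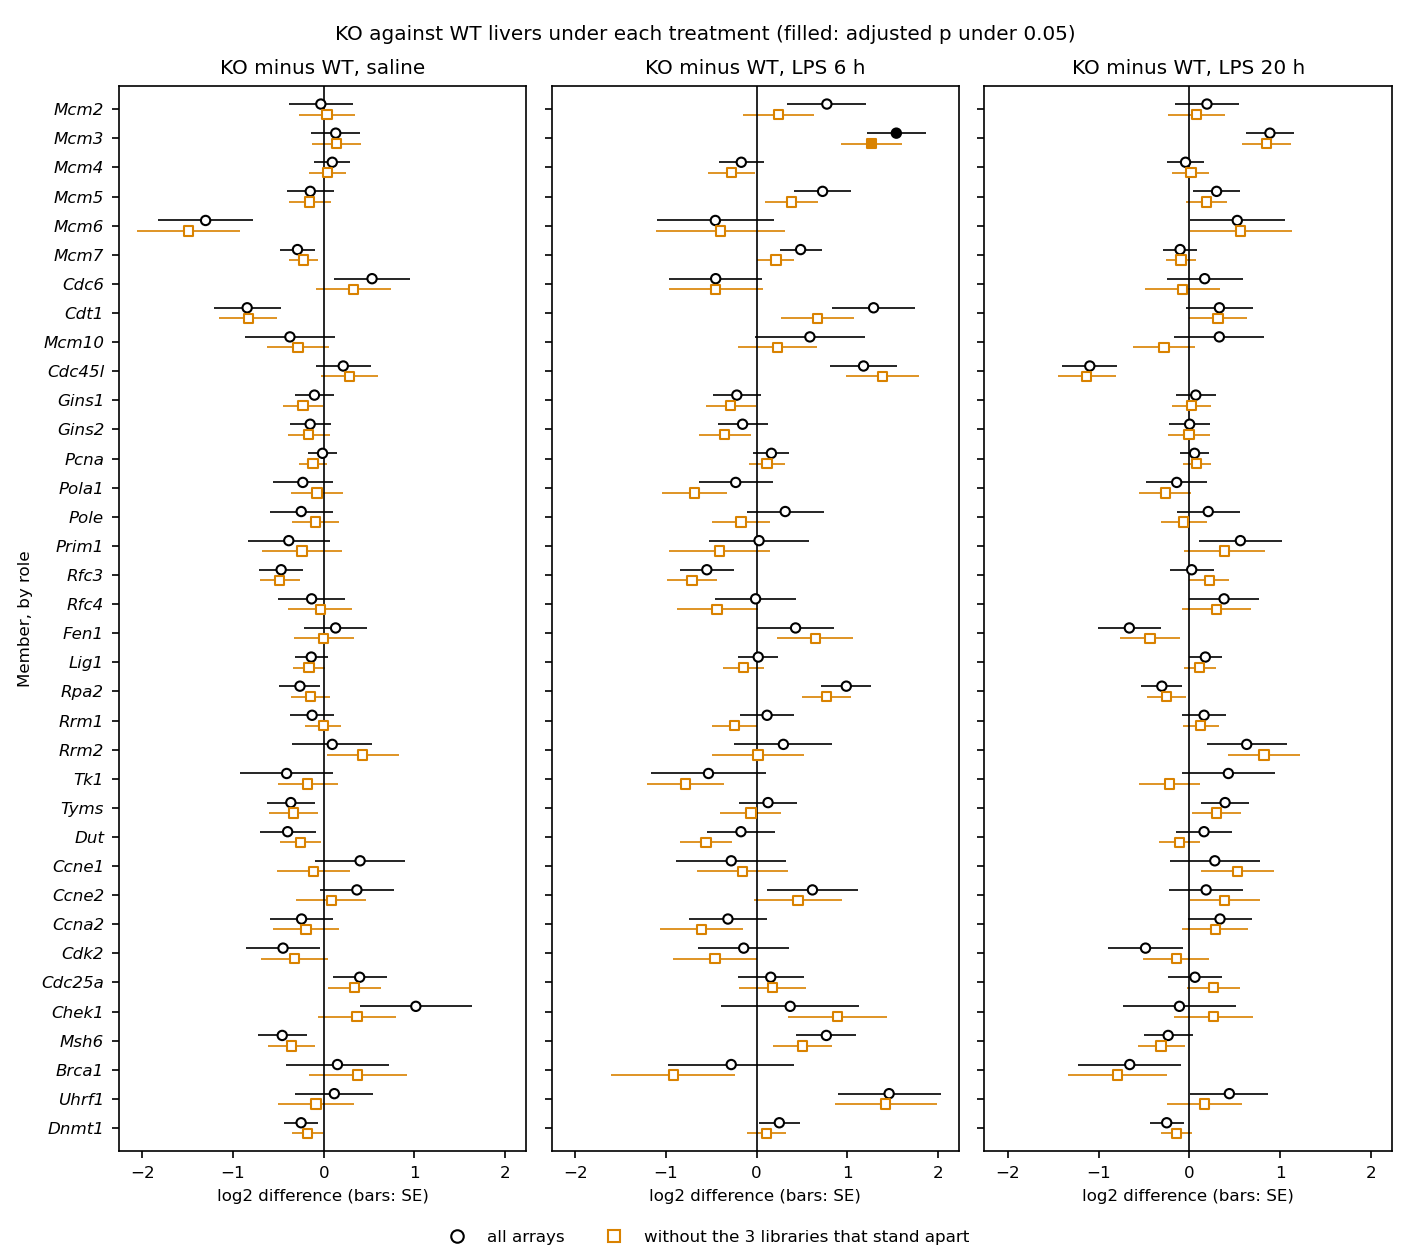
KO minus WT difference of each tested gene on saline, at 6 h and at 20 h after LPS, in log2 units with SE, with all arrays (circles) and without the 3 libraries that stand apart (squares). Filled symbols have an adjusted p under 0.05. Mcm3 at 6 h is the filled gene, at 1.54 with all arrays and 1.27 without the 3 libraries.

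Other genes of the same steps were counted from lists, and the shares of all genes stand beside these counts. In WT livers at 6 h, 16.1% of all genes were called lower and 12.4% higher. In KO livers at 6 h the shares were 1.05% lower and 1.55% higher with all arrays. Without the 3 libraries they were 17.6% lower and 13.5% higher. At 6 h in WT livers, 4 of 13 further origin and helicase genes fell and 1 rose, led by Gmnn (geminin, the inhibitor of CDT1) at -2.99 ± 0.63 and Gins3 at 1.51 ± 0.40. Of 22 further fork genes 8 fell and 2 rose, led by Dna2, a nuclease and helicase, at -2.80 ± 0.57 and Timeless at 1.48 ± 0.33. Of 20 further repair and chromatin genes 8 fell and 3 rose, and the largest fall was that of Dnmt3b, a de novo DNA methyltransferase, at -2.21 ± 0.42. Among 16 further nucleotide genes 2 fell and 2 rose, led by Cad at -1.61 ± 0.44 and Samhd1, a dNTP hydrolase also known as an antiviral factor, at 5.56 ± 0.96. In KO livers the same lists had 0 lower and 0 higher, 0 lower and 1 higher, 1 lower and 0 higher, and 0 lower and 0 higher with all arrays. They had, without the 3 libraries, 5 lower and 0 higher, 10 lower and 2 higher, 8 lower and 3 higher, and 2 lower and 2 higher.

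At 20 h the further nucleotide genes were mostly lower where called. Of the 16, 6 fell and 3 rose in KO livers (7 and 3 without the 3 libraries) and 8 fell and 3 rose in WT livers. Beside this and the counts below, 14.6% of all genes were called lower and 11.7% higher in KO livers at 20 h. In WT livers the shares were 20.2% lower and 16.3% higher, and in KO livers without the 3 libraries 22.1% and 19.0%. Shmt1, the cytosolic serine hydroxymethyltransferase, fell by 2.70 ± 0.49 in KO livers and fell by 3.70 ± 0.49 in WT livers (adjusted p = 1.73e-06). Of the further origin and helicase genes 2 rose and 1 fell in KO livers and 4 rose and 2 fell in WT livers, and Dbf4, the activator of the CDC7 kinase, rose by 1.89 ± 0.50 in KO and 1.91 ± 0.50 in WT livers. Of the further fork genes 3 rose and 0 fell in KO livers and 4 rose and 5 fell in WT livers (Pole4 at 0.98 and Pole2 at -1.42 led), and of the further repair and chromatin genes 4 rose and 4 fell in KO livers and 4 rose and 3 fell in WT livers. Tet1, a DNA demethylase, fell by 2.80 ± 0.35 in KO livers and fell by 3.68 ± 0.35 in WT livers (adjusted p = 2.46e-08), and Chaf1b, a histone chaperone, rose by 2.03 ± 0.46 in KO and 1.95 ± 0.46 in WT livers. With the 3 libraries left out, the KO counts at 20 h were 2 higher and 3 lower for origin and helicase genes, 4 and 5 for fork genes, and 6 and 4 for repair and chromatin genes. The KO changes were then -3.42 for Shmt1, 2.46 for Dbf4, -3.32 for Tet1 and 2.71 for Chaf1b.

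Of 16 further G1 cyclins, kinases and inhibitors, Cdkn1a (p21, an inhibitor of cyclin-dependent kinases) had the largest rise after LPS. It rose by 3.98 ± 0.77 at 20 h in KO livers (adjusted p = 4e-04) and, in WT livers, by 4.04 ± 0.87 at 6 h (adjusted p = 0.000762) and by 5.38 ± 0.77 at 20 h (adjusted p = 4.52e-06). Across the list, 1 rose and 2 fell at 20 h in KO livers and 1 rose and 4 fell in WT livers, and at 6 h none was called in KO livers and 2 rose and 2 fell in WT livers. Of all genes, 11.7% were called higher and 14.6% lower at 20 h in KO livers, and 16.3% and 20.2% in WT livers. At 6 h the shares were 1.55% higher and 1.05% lower in KO livers, and 12.4% and 16.1% in WT livers. Leaving out the 3 libraries gave 3 higher and 2 lower at 6 h and 1 higher and 4 lower at 20 h in KO livers. In that fit 13.5% of all genes were higher and 17.6% lower at 6 h, and 19.0% and 22.1% at 20 h. The largest falls were Ccnd1 (cyclin D1) at -1.78 at 20 h in KO livers, Cdkn1c at -2.18 at 20 h in WT livers and Skp2 at -1.82 at 6 h in WT livers. The KO change of Cdkn1a at 6 h was 2.41 ± 0.87 (adjusted p = 0.0999), and 4.15 without the 3 libraries (adjusted p = 1.33e-05). With all arrays, Cdkn1b (p27), another such inhibitor, was the gene of these lists called between the genotypes, and it was looked at after its values were seen. It was 1.53 ± 0.31 higher in KO livers on saline (adjusted p = 0.0182) and 1.84 ± 0.38 higher at 6 h (adjusted p = 0.0133). On saline it stood at 0.23, 0.68 and 1.22 in KO livers, against -1.48, -0.96 and -0.06 in WT livers, without overlap. Its 2 other probes gave -0.55 and -0.47 on saline and 0.85 and -0.90 at 6 h, so the probes of Cdkn1b disagree in sign. The fit without the 3 libraries also called Wee1, a kinase that holds back CDK1, lower in KO livers at 6 h (-1.93, adjusted p = 0.016, against -1.42 and 0.128 with all arrays) and Pole2, a subunit of polymerase epsilon (-2.01, adjusted p = 0.0248, against -1.40 and 0.308).

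Marker genes of other cell types were called in the same comparisons. Of all genes, 12.4% were called higher and 16.1% lower at 6 h in WT livers, and 1.55% and 1.05% in KO livers. At 20 h the shares were 16.3% higher and 20.2% lower in WT livers, and 11.7% and 14.6% in KO livers. In KO livers without the 3 libraries they were 13.5% and 17.6% at 6 h, and 19.0% and 22.1% at 20 h. Of 8 neutrophil genes 7 rose in each of the 4 LPS against saline comparisons, and their summed level had a median of 385 in KO and 246 in WT livers at 6 h and 437 in KO and 311 in WT livers at 20 h, against 3.99 on KO saline and 4.60 on WT saline, in multiples of the 75th percentile. The highest sum on KO saline was 533. Of 13 mitotic genes, 3 fell in WT livers at 6 h (Aurka, Bub1b and Cdc20) and none rose. The others were not called and lay on both sides of 0, from -0.70 (Plk1) to 0.79 (Mki67). The summed level of the 13 was 1.72 to 3.59 in WT LPS 6 h livers against 2.42 to 7.03 on WT saline. Of 7 sinusoidal endothelial genes 3 fell and 1 rose in WT livers at 6 h, and their sum was 15.6 to 31.8, against 32.1 to 54.6 on WT saline. Of 8 hepatocyte genes none was called at 6 h in either genotype with all arrays, while the fit without the 3 libraries called 1, Hnf4a, higher in KO (0.73, adjusted p = 0.0024) and in WT livers (0.51, adjusted p = 0.0133). At 20 h 4 fell and 0 rose in KO livers (3 and 1 without the 3 libraries) and 5 fell and 1 rose in WT livers. In KO livers at 6 h, 0 of the 13 mitotic and 0 of the 7 endothelial genes were called with all arrays. With the 3 libraries left out, 3 mitotic genes fell there, Aurka at -1.32, Bub1b at -0.80 and Cdc20 at -1.43, and 5 endothelial genes fell and 1 rose. Of 8 Kupffer cell and macrophage genes 5 fell and 1 rose at 20 h in KO livers and 6 fell and 1 rose in WT livers, with 6 lower and 1 higher in KO livers when the 3 libraries were left out. The part of these cells in the changes of the replication genes was not tested.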

How the data were processed

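Total RNA of 32 mouse livers was hybridised to single-colour Agilent arrays. Per the file headers, the deposited intensity values are Feature Extraction 10.7.1.1 processed signals, background-subtracted by that software. The authors' deposited table of processed values, on a log2 scale with 23916 probes, served as an alternative only. The sources used here do not say how that table was normalized.

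After control spots and outlier flags were left out, 43379 spots of 41174 probes remained. The log2 signal of each array was centred on its 75th percentile, and 28337 probes that stood well above background on 4 or more arrays entered the analysis. A gene was read by the brightest of its probes. Group means were fitted with limma 3.58.1 in R 4.3.3 over all 32 arrays for 11 comparisons, with Benjamini-Hochberg adjustment over 19199 genes. The fit was tested on simulated data. The number of arrays limits the precision. The 9 slides and 3 scan dates were tested as blocks, and values are given within scan dates. Missing values numbered 361, 2 of them in the genes described (Rfc4 in KO LPS 20 h replicate 6 and Uhrf1 in WT LPS 6 h replicate 3), and the fit left them out. Same-numbered mice of different groups did not deviate together, with a median correlation of 0.0122 over 72 pairs, so replicate numbers were not used as pairs. Promoter windows came from RefSeq tables of GRCm38.p6. The members and lists were chosen with earlier results of these data known. Values by array are given for E2f1, for the 2 members of each role group with the largest called changes after LPS, and for members called between the genotypes. Called members are named up to 8 per direction, and each other list by its largest called change per direction. Some items are not reported here.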

Additional observations from a re-analysis of the deposited data

Results flagged for a closer look

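In groups of 4 or 6 mice, a single array stood farther from its group than the limit of Dixon's test in 9 of the 84 gene and group pairs looked at, where chance gives about 1 in 20 groups. Cdt1 was 2.04 on WT saline replicate 5, against 1.29 to 1.39 on the other arrays. Mcm3 was 2.37 on WT LPS 20 h replicate 4, against 0.82 to 1.35. Gins2 was -2.53 on KO LPS 20 h replicate 6, against -1.90 to -1.56, and -1.42 on WT LPS 20 h replicate 1, against -2.11 to -1.88. Pole was -2.04 on WT LPS 20 h replicate 2, against -3.77 to -3.36, and E2f1 was -4.03 on the same array, against -6.21 to -5.79. Dut was 1.60 on KO LPS 6 h replicate 1, against 0.02 to 0.11. Msh6 was 1.39 on WT LPS 6 h replicate 4, against 0.74 to 0.80. Dnmt1 was -1.82 on KO saline replicate 1, against -1.52 to -1.34. KO LPS 6 h replicate 1 and KO saline replicate 1 are among the 3 libraries that stand apart from their groups.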

How the results depend on the processing

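The 73 called changes of the genes described were recomputed under each alternative, which gave 1907 values, of which 1526 kept direction and call, 374 kept direction without the call and 7 turned. All 7 turned within scan date 3, whose single KO LPS 6 h array is replicate 1 and which also holds KO saline replicate 1. They were Mcm7 in KO livers at 6 h (0.16) and, for 20 h against 6 h in KO livers, Cdt1 (-0.76), Lig1 (-0.062), Mcm2 (-0.57), Mcm5 (-0.46), Mcm7 (-0.048) and Rrm1 (-0.49). Leaving out the libraries that stand apart was chosen after seeing the data. The count called at 6 h in KO livers (1) was 14 without 2 or 3 of them. Without 2, 2454 of all 19199 genes were called higher and 3141 lower. The count was 0 with median centring, normexp, no filter, slide as a block, the replicate block or only the groups compared. With slide as a block 0 of all 19199 genes were called higher and 0 lower, so that count is not particular to these genes. Leaving out 1 array gave 0 to 10, with 6 without KO saline replicate 1, 10 without KO LPS 6 h replicate 1 and 0 without any other array. At 6 h in WT livers (16) the count was 11 to 15 leaving out 1 array. With slide as a block it was 10, beside 2201 of all 19199 genes called lower and 1900 higher. At 20 h in KO livers (10) it was 5 with normexp, 0 within dates 2 and 3, and 9 to 11 leaving out 1 array, and in WT livers (12) 7 within date 1 and 8 to 12. For 20 h against 6 h it was, in KO livers (15), 5 with normexp, 1 with only the groups compared, 8 and 0 within dates 2 and 3, and 5 to 16 leaving out 1 array, with 5, 8 and 8 without KO LPS 6 h replicates 3, 2 and 4. In WT livers (18) it was 11, 4 and 0 within dates 1, 2 and 3, and 16 to 18. KO against WT at 6 h (1) gave 3 with quantile normalization, 0 with normexp, slide as a block, only the groups compared, without 2 libraries and within each date, and 0 to 2 leaving out 1 array, with 0 without WT LPS 6 h replicate 1 or KO LPS 6 h replicate 1 and 2 without KO LPS 6 h replicate 3. The other comparisons of genotype stayed at 0. With the replicate block the counts were 15 at 6 h and 10 at 20 h in WT livers, 10 at 20 h in KO livers, and 11 in KO and 17 in WT livers for 20 h against 6 h. The causes were not tested. For KO against WT at 6 h, 226 of all 19199 genes were higher and 83 lower with quantile normalization, and 34 and 28 with slide as a block. Where no share of all genes under an alternative is given, these counts are not read as results about these genes. The median of all genes moved most with scaling for the KO minus WT response at 6 h under median centring (0.28), and removing the filter on dim probes moved it by -0.35 for 20 h against 6 h in WT livers. Genes near background, such as Cdc6, Cdc45l, Cdk2 and Chek1, have sizes limited by signal over background.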
